A study of Mus musculus with 24 samples.

Results

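Fatty acid oxidation in the liver was followed through 32 genes, taken by their symbols from the 15161 genes of a count table of liver RNA. They comprise 1 transcription factor, 1 acyl-CoA synthetase, 4 genes of the carnitine shuttle, 13 mitochondrial enzymes (8 of the oxidation steps, 3 of electron transfer and 2 auxiliary enzymes), 8 peroxisomal proteins and 5 further genes tied to the same programme. The livers were from 4-month-old males of the inbred strain C57BL6/J, and the labels name no engineered allele. Methionine restriction (MR) was set against control diets with 2 protein sources, giving 4 groups of 6 libraries. The elemental MR group was fed free amino acids with 0.17% methionine, and the elemental control group free amino acids with 0.86% methionine. The casein MR group was fed oxidized casein, the main milk protein after a treatment that turns its methionine into forms the body uses poorly, with 0.17% methionine. The casein control group was fed casein with 0.86% methionine and is not labelled as oxidized, so restriction and oxidation of the protein cannot be told apart within the casein pair. The question of the series was whether oxidized casein and free amino acids give the same response of the liver to MR. Each library carries a 4-digit number that is not stated to be a mouse. The p-values below set differences between groups against the spread between these samples.

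Fatty acids are activated to acyl-CoA, passed into mitochondria as carnitine esters, and shortened there by a repeated sequence of dehydrogenation, hydration, a further dehydrogenation and thiolysis. Peroxisomes run a parallel sequence that begins with an oxidase instead of a dehydrogenase and takes very long, branched and dicarboxylic chains. In hepatocytes, many genes of both routes are targets of PPARα, a nuclear receptor activated by fatty acids that binds DNA with RXR at a direct repeat of the hexamer AGGTCA. The pathway is known for its rise in the fasting liver, where its acetyl-CoA feeds ketone body synthesis.

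The promoters are shown for 4 genes that differ both in response and in letters. Fabp1 alone held a spaced repeat of this hexamer, and only in the relaxed form given below. Acadvl, which rose with both proteins, and Cpt1a, which was called with neither, each held a single hexamer. Ehhadh, the gene with the largest change, held none. The sequences come from RefSeq (build GRCm38.p6) and cover the 150 bases before the annotated start, 5′ to 3′ on the strand of the gene, with matches to the motifs in capitals (on the opposite strand the hexamer reads TGACCT). They lie at chr6:71199729-71199878 (plus strand) for Fabp1, chr11:70015429-70015578 (minus strand) for Acadvl, chr19:3323151-3323300 (plus strand) for Cpt1a and chr16:21787835-21787984 (minus strand) for Ehhadh.
Fabp1: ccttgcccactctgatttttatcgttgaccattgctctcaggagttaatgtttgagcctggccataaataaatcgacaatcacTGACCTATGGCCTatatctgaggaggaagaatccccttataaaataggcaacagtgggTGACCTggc
Acadvl: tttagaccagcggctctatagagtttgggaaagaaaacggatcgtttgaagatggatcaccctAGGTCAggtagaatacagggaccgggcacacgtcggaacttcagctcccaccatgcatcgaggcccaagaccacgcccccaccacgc
Cpt1a: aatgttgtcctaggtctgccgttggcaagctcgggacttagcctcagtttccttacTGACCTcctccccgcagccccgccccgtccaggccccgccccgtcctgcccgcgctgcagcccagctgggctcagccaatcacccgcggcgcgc
Ehhadh: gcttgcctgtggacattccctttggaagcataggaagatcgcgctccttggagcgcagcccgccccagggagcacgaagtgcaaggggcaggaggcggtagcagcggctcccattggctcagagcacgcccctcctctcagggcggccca
The motifs were searched on both strands of windows from 250 bases before to 50 bases after the start, for the 27 members that had a RefSeq window (28 windows); the hexamer also lies inside the repeat, so those matches overlap. The repeat AGGTCANAGGTCA was in 0 of 28 member windows and in 0.0396% of all 32851 windows. Its relaxed form AGGNCANAGGNCA was found in 1 member, Fabp1, as TGACCTATGGCCT on the opposite strand at position -67, against 0.381% of all windows. The hexamer AGGTCA was in 5 of 28 member windows (17.9%), those of Acadm, Acadvl, Cpt1a, Fabp1 and Slc27a2, against 16.3% of all windows. These are matches of letters in short windows and do not show where a factor binds.

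Between 13.5 and 20.8 M reads were counted per library, 13441 genes passed the filter on low counts, and all 32 members were among them. Levels are CPM, counts relative to a TMM-scaled library size, and fold changes are log2 values with their standard errors from edgeR's quasi-likelihood fit over all 24 libraries. A gene is called where its Benjamini-Hochberg adjusted p over all genes tested is under 0.05. Of the 8 hepatocyte markers, 7 were in the table and none was at 0 in any library. Their summed level was 97849 to 108969 CPM with elemental MR, against 119467 to 130611 CPM with elemental control, and 72908 to 81884 CPM with casein MR, against 108196 to 128302 CPM with casein control. All 7 fell with casein MR, while 1 rose and 2 fell with elemental MR, and in bulk tissue fewer cells of a type and less RNA per cell cannot be told apart. The 10 skeletal muscle markers summed to 2109 CPM in library C_MR_3438, against at most 74.5 CPM in the other 5 libraries of its group and highest values of 16.3 to 36.8 CPM in the other groups, and all 10 were called higher with casein MR. The 6 adipocyte markers in the table summed to 65.6 CPM in E_MR_3423 and to at most 20 CPM in the other 5 elemental MR libraries, with Plin1 at 0 in 12 of the 24 libraries. The 5 cholangiocyte markers summed to 23.9 to 46.8 CPM with casein MR, against 42.5 to 81.5 CPM with casein control, and 3 of them fell. With elemental MR they summed to 20.5 to 33.1 CPM, against 36.1 to 58.8 CPM with elemental control, without overlap, and 1 fell. The 8 stellate cell markers summed to 323 to 377 CPM with elemental MR, against 381 to 459.6 CPM with elemental control, also without overlap, and 2 fell. With casein MR they summed to 345 to 484 CPM, against 384 to 474 CPM with casein control. There 1 of them, Des, rose (log2 fold change 1.78), while the other 7 had negative values, and the median of the 8 was -0.28. C_MR_3431 was the highest of its group for Kupffer cell (582 CPM), endothelial (369.9 CPM), stellate cell and erythroid (7342 CPM) markers. The part of these cell markers in the results was not tested, except that the counts of members called were also run without each library.

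With casein MR 25 of the 32 members rose and 1 fell, against 23.3% of all genes called in that comparison (10.6% higher and 12.7% lower). With elemental MR 7 rose and 2 fell, against 13.4% of all genes called (6.78% higher and 6.64% lower). The median log2 fold change of the 32 was 0.50 with casein MR and 0.17 with elemental MR, beside medians over all genes of 0.0097 and -0.0028. The libraries of the 2 diets did not overlap for 20 members with casein and for 4 with elemental amino acids (Acadl, Hadh, Decr1 and Ech1), against 11% and 6.83% of all genes. Together the members took 2.26 ± 0.219% of reads with casein MR and 1.60 ± 0.181% with casein control, and 1.57 ± 0.143% with elemental MR and 1.54 ± 0.128% with elemental control (SD, n = 6 each). These are shares of raw counts, without the TMM scaling used for CPM. That scaling changes the size of a difference between groups and can change its direction. The largest member, Fabp1, is given here on the TMM scale, so its averages cannot be set beside these shares. Fabp1 averaged 8440 CPM with casein MR and 8946 CPM with casein control. With elemental MR it averaged 6160 CPM, against 8168 CPM with elemental control. Leaving out any 1 library gave 25 or 26 calls with casein and 7 to 12 with elemental amino acids, and without C_MR_3438 they were 26 and 8.

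**Figure D1:**
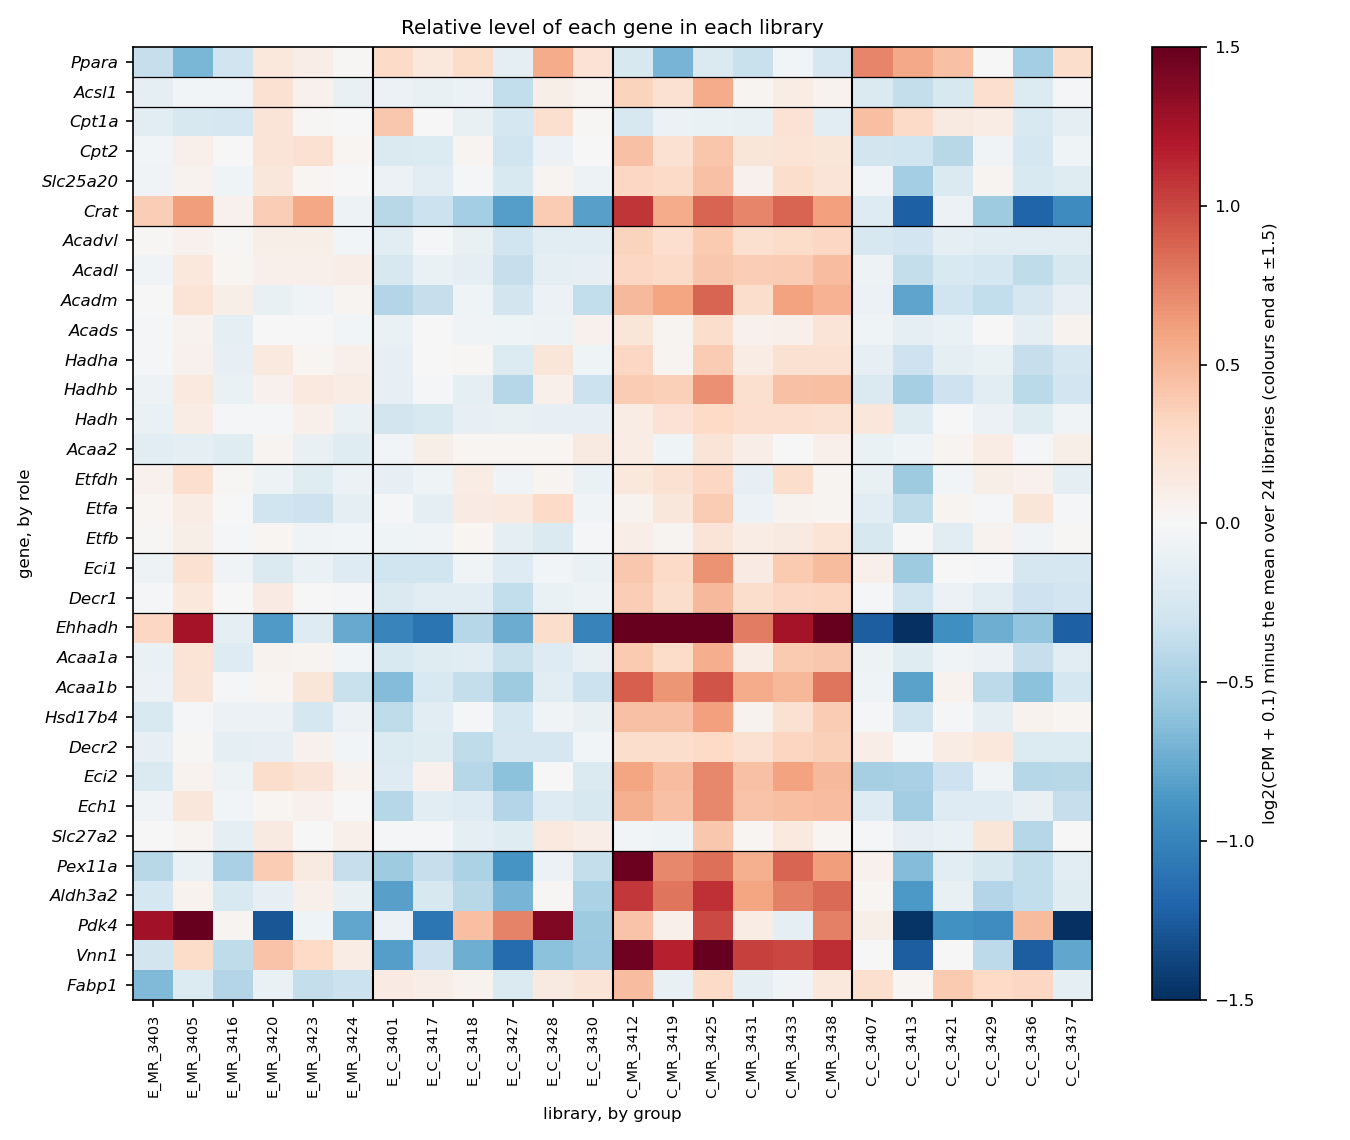
Relative level of the 32 genes (rows, ordered by role, with lines between roles) in the 24 libraries (columns, by group), as log2(CPM + 0.1) minus the mean over all libraries, with colours ending at ±1.5. The casein MR columns are red in most rows, Ppara and Cpt1a are among the exceptions, and Pdk4 varies within every group.

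Ppara encodes the receptor PPARα itself. Its level was 62.4, 85.3 and 98 CPM with casein MR (lowest, median and highest of 6 libraries), against 71.3, 129 and 169 CPM with casein control. With elemental MR it was 62.7, 92.4 and 113 CPM, against 91.8, 119.8 and 148 CPM with elemental control. Ranges overlapped in both pairs, and the highest library of each MR group stayed under the median of its control group. The message of the receptor fell with casein MR (log2 fold change -0.59 ± 0.16, adjusted p = 0.00762), and its value with elemental MR was -0.39 ± 0.16 (adjusted p = 0.117). Ppara was the single member to fall on casein, and the 2 effects differed by -0.21 ± 0.23 (adjusted p = 0.804), which is within their errors.

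Acsl1 activates long chain fatty acids to acyl-CoA. It stood at 903, 990.3 and 1294 CPM with casein MR and 685, 759 and 1049 CPM with casein control, and at 798, 855 and 1030.0 CPM with elemental MR and 680.4, 829 and 937 CPM with elemental control. The ranges overlapped in both pairs, with 1 casein control library above the casein MR median. Acsl1 rose with casein MR (log2 fold change 0.35 ± 0.10, adjusted p = 0.0105) and was not called with elemental MR (0.079 ± 0.10, adjusted p = 0.684).

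The 4 genes of the carnitine shuttle differed among themselves. Cpt1a, the outer membrane transferase whose inhibition by malonyl-CoA controls entry, had 164, 181 and 226 CPM with casein MR and 166, 211 and 265 CPM with casein control. With elemental MR it had 163, 184 and 222 CPM, against 161, 196 and 258 CPM with elemental control. All 4 ranges overlapped, the log2 fold changes were -0.19 ± 0.11 with casein MR (95% interval -0.43 to 0.039) and -0.13 ± 0.11 with elemental MR (-0.36 to 0.10), and neither was called. Cpt2, the inner membrane transferase that returns acyl groups to CoA, reached 132, 135 and 157 CPM with casein MR, against 87.3, 96.5 and 112 CPM with casein control. It reached 113, 121 and 136 CPM with elemental MR, against 94.4, 105 and 119.6 CPM with elemental control. Every casein MR library was above every casein control library, while the elemental ranges overlapped. The rise was 0.50 ± 0.073 with casein MR (adjusted p = 7.37e-06), and the value with elemental MR was 0.21 ± 0.073 (adjusted p = 0.0567).

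Slc25a20, the exchanger that carries acylcarnitine across the inner membrane, had 133, 155 and 174 CPM with casein MR and 90.1, 111 and 132 CPM with casein control. The corresponding levels were 122, 129 and 144 CPM with elemental MR and 109, 121 and 132 CPM with elemental control. The casein groups were separate, and the elemental groups were not. It rose by 0.44 ± 0.075 on the log2 scale with casein MR (adjusted p = 5.47e-05) and had 0.11 ± 0.074 with elemental MR (adjusted p = 0.367). Crat transfers acetyl and short acyl groups to carnitine and was the lowest of the 4. It measured 37.6, 44.7 and 53.7 CPM with casein MR, against 10.8, 15.4 and 24.1 CPM with casein control, and 24.2, 33 and 39.5 CPM with elemental MR, against 14.4, 18.5 and 33.2 CPM with elemental control. The casein ranges did not overlap, and on elemental amino acids a single control library, E_C_3428, lay above the MR median. Crat rose on both proteins, by 1.42 ± 0.20 with casein MR (adjusted p = 3.74e-06) and by 0.71 ± 0.19 with elemental MR (adjusted p = 0.0144).

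Of the 8 genes of the mitochondrial oxidation steps, 7 rose with casein MR and the median change was 0.46, while 2 rose and 1 fell with elemental MR and the median was 0.17. Acadl, the long chain acyl-CoA dehydrogenase, had 402, 428 and 456 CPM with casein MR, against 254, 277 and 314 CPM with casein control. With elemental MR it had 319, 347 and 367 CPM, against 259.9, 300.2 and 309 CPM with elemental control. Both pairs were separate without overlap, and the rise was 0.62 ± 0.056 with casein MR (adjusted p = 3.03e-09) and 0.24 ± 0.056 with elemental MR (adjusted p = 0.00401). Acadvl, the very long chain dehydrogenase of the inner membrane, had 328, 341 and 366 CPM with casein MR and 229, 248 and 252 CPM with casein control, and 271, 286 and 297 CPM with elemental MR and 227, 249.8 and 276 CPM with elemental control. The casein groups were separate, and in the elemental pair the highest control library reached past the lowest MR library. Acadvl rose by 0.49 ± 0.048 with casein MR (adjusted p = 1.31e-08) and by 0.18 ± 0.048 with elemental MR (adjusted p = 0.00972).

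Hadhb encodes the thiolase subunit of the mitochondrial trifunctional protein. It had 94.6, 107 and 129.7 CPM with casein MR, against 56.8, 65.4 and 71.7 CPM with casein control, and 75, 85.6 and 89 CPM with elemental MR, against 59.8, 73.1 and 84.9 CPM with elemental control. All 6 casein MR libraries lay above every library of the other 3 groups. The rise was 0.74 ± 0.082 with casein MR (adjusted p = 1.21e-07), and the value with elemental MR was 0.20 ± 0.082 (adjusted p = 0.106). Because 18.1% of its 50-base transcript segments are shared with the annotated gene Gm13910, the split of reads between them is uncertain.

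Hadha, the other subunit of the trifunctional protein, rose by 0.43 with casein MR and had 0.059 with elemental MR. Acadm, the medium chain dehydrogenase, rose by 0.87 with casein MR and had 0.29 with elemental MR. Acads, the short chain dehydrogenase, and Hadh, the hydroxyacyl-CoA dehydrogenase of shorter chains, rose less with casein MR, by 0.21 and 0.28. Acaa2, the mitochondrial thiolase and the most abundant of these 8 genes, did not follow the others. It was 864, 886 and 1006 CPM with elemental MR, against 954, 1002 and 1078 CPM with elemental control, and 937, 1044 and 1127 CPM with casein MR, against 917, 991 and 1061 CPM with casein control. It fell with elemental MR (-0.17 ± 0.055, adjusted p = 0.0433), a call lost in 12 of 24 leave-one-out fits, and had 0.059 ± 0.055 with casein MR (adjusted p = 0.494).

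The 3 genes of electron transfer, which pass electrons from the dehydrogenases to ubiquinone, had small fold changes. Etfdh, the ubiquinone oxidoreductase, had 99.5, 123 and 134 CPM with casein MR and 74.6, 103 and 115 CPM with casein control, and 94.9, 106 and 129 CPM with elemental MR and 98.8, 103 and 116 CPM with elemental control. Ranges overlapped in both pairs, and the rise with casein MR was 0.25 ± 0.089 (adjusted p = 0.0437), the 1 call of that comparison that was lost in 8 of 24 fits without 1 library and in the fit of the casein groups alone (adjusted p = 0.0911). Etfa, the alpha subunit of the flavoprotein, had 128, 142 and 178 CPM with casein MR and 104, 135 and 154 CPM with casein control, and 109, 129 and 147 CPM with elemental MR and 123, 141 and 166 CPM with elemental control. These 4 ranges overlapped, and Etfa was called with neither protein (0.16 ± 0.094 with casein MR and -0.16 ± 0.094 with elemental MR). Etfb, the beta subunit, had 380.2, 402 and 427 CPM with casein MR and 312, 362 and 383 CPM with casein control, and 355, 369 and 392 CPM with elemental MR and 318, 354 and 377 CPM with elemental control. Its casein ranges met at 1 library, it rose by 0.19 ± 0.054 with casein MR (adjusted p = 0.0086), and 43.8% of its 50-base segments are shared with the annotated gene Gm45233.

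The 2 auxiliary enzymes of unsaturated fatty acids in mitochondria both rose with casein MR. Eci1, which moves double bonds, had 213, 257 and 311 CPM with casein MR, against 135, 178 and 206 CPM with casein control, and 168, 183 and 228 CPM with elemental MR, against 159, 176 and 189 CPM with elemental control. The casein groups were separate and the elemental groups overlapped, with log2 fold changes of 0.55 ± 0.095 with casein MR (adjusted p = 7.29e-05) and 0.099 ± 0.095 with elemental MR (adjusted p = 0.566). Decr1, the dienoyl-CoA reductase, had 278, 288 and 324 CPM with casein MR, against 188, 198 and 227 CPM with casein control, and 229, 232 and 258 CPM with elemental MR, against 179.9, 208 and 220.1 CPM with elemental control. Both pairs were separate, and Decr1 rose on both proteins, by 0.53 ± 0.060 with casein MR (adjusted p = 1.72e-07) and 0.22 ± 0.060 with elemental MR (adjusted p = 0.0148).

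Among the 8 peroxisomal genes 7 rose with casein MR and 2 rose with elemental MR, Acaa1b and Ech1. Ehhadh, the bifunctional enzyme of the peroxisomal sequence, had the largest change of the 32. It had 45.8, 105 and 206 CPM with casein MR, against 5.91, 12.8 and 17.7 CPM with casein control, and 14.9, 23.9 and 63.7 CPM with elemental MR, against 12.5, 14.7 and 32.1 CPM with elemental control. The lowest casein MR library exceeded every control library, whereas on elemental amino acids 1 library, E_MR_3405, held the highest value and the other 5 MR libraries overlapped the control range or came close to it. The rise was 8.65-fold with casein MR (log2 3.11 ± 0.37, adjusted p = 3.51e-07), and the log2 value with elemental MR was 0.71 ± 0.35 (adjusted p = 0.202). Ehhadh also varied most of the 32 within casein MR, with a coefficient of variation of 52.9%.

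Ech1, a dienoyl-CoA isomerase found in peroxisomes and mitochondria, had 356, 364 and 438 CPM with casein MR, against 185, 232 and 245 CPM with casein control. It had 255, 269 and 298 CPM with elemental MR, against 195, 228 and 238 CPM with elemental control. Neither pair overlapped, and the rises were 0.76 ± 0.070 with casein MR (adjusted p = 4.48e-09) and 0.30 ± 0.070 with elemental MR (adjusted p = 0.00378). Eci2, an enoyl-CoA isomerase placed with the peroxisomal genes, also occurs elsewhere in the cell. Its level was 296, 317 and 361 CPM with casein MR, against 154, 163 and 209.8 CPM with casein control. With elemental MR it was 188, 226 and 262 CPM, against 142, 189 and 228 CPM with elemental control. All casein MR libraries were above all others of the series, and Eci2 rose by 0.91 ± 0.10 with casein MR (adjusted p = 9.65e-08), with 0.27 ± 0.10 for elemental MR (adjusted p = 0.0743).

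Acaa1b, one of a pair of peroxisomal thiolases, rose by 1.05 ± 0.12 with casein MR and by 0.37 ± 0.12 with elemental MR (adjusted p = 0.0422), a call with elemental MR that was lost in 9 of 24 fits without 1 library. Its partner Acaa1a rose by 0.50 ± 0.069 with casein MR and had 0.20 ± 0.069 with elemental MR. The values of both are uncertain one by one, since 30.5% of the 50-base segments of Acaa1b are shared with Acaa1a. Hsd17b4, the bifunctional enzyme of branched chains, and Decr2, the peroxisomal dienoyl-CoA reductase, rose by 0.43 ± 0.080 and 0.29 ± 0.065 with casein MR and were not called with elemental MR (0.033 ± 0.080 and 0.16 ± 0.065). Slc27a2, a very long chain acyl-CoA synthetase and fatty acid transporter, was the exception, with 467 to 644 CPM with casein MR, against 361 to 552 CPM with casein control, and log2 fold changes of 0.16 ± 0.086 with casein MR and 0.038 ± 0.086 with elemental MR.

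The 5 remaining genes included 3 that rose with casein MR and 2, Pdk4 and Fabp1, that were not called there. Vnn1, a pantetheinase and a known PPARα target in mouse liver, had 139, 152 and 210.0 CPM with casein MR, against 29.2, 46.6 and 69.6 CPM with casein control, and 53, 79.3 and 93.1 CPM with elemental MR, against 31.1, 43.6 and 55.7 CPM with elemental control. The casein MR libraries lay above all others, and in the elemental pair the highest control library lay above the lowest MR library. Vnn1 rose 3.38-fold with casein MR (log2 1.76 ± 0.20, adjusted p = 1.26e-07) and 1.72-fold with elemental MR (0.78 ± 0.19, adjusted p = 0.00695). Aldh3a2, the fatty aldehyde dehydrogenase, had 337, 397 and 476 CPM with casein MR, against 123, 185 and 227 CPM with casein control, and 185, 206 and 236 CPM with elemental MR, against 127, 164 and 226 CPM with elemental control. It rose with casein MR (1.16 ± 0.13, adjusted p = 1.30e-07), without overlap, and had 0.32 ± 0.13 with elemental MR (adjusted p = 0.107). Pex11a, which takes part in the division of peroxisomes, had 419, 494 and 801 CPM with casein MR, against 184, 251 and 303 CPM with casein control, and 206, 249 and 378 CPM with elemental MR, against 157, 217 and 272 CPM with elemental control. The casein groups were separate, and Pex11a rose with casein MR (1.11 ± 0.16, adjusted p = 6.09e-06) with 0.32 ± 0.16 for elemental MR (adjusted p = 0.196).

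Pdk4, the kinase that closes pyruvate dehydrogenase and spares glucose when fat is burned, was at a low level in every group. Its level was 1.37, 1.86 and 3.11 CPM with casein MR, against 0.375, 0.756 and 2.14 CPM with casein control, and 0.564, 1.5 and 7.72 CPM with elemental MR, against 0.661, 1.76 and 4.13 CPM with elemental control. All ranges overlapped and the estimates were wide, at 1.0 ± 0.54 with casein MR and 0.41 ± 0.50 with elemental MR, and neither was called. Fabp1, the abundant fatty acid binding protein of hepatocytes, had 4926, 6164 and 7251 CPM with elemental MR, against 6702, 8394 and 8895 CPM with elemental control. It had 7047, 8097 and 10720.3 CPM with casein MR, against 7017, 9389 and 10258 CPM with casein control. Fabp1 fell with elemental MR (-0.41 ± 0.11, adjusted p = 0.0114), where 1 control library, E_C_3427, reached into the MR range, and had -0.084 ± 0.11 with casein MR (adjusted p = 0.645).

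**Figure D2:**
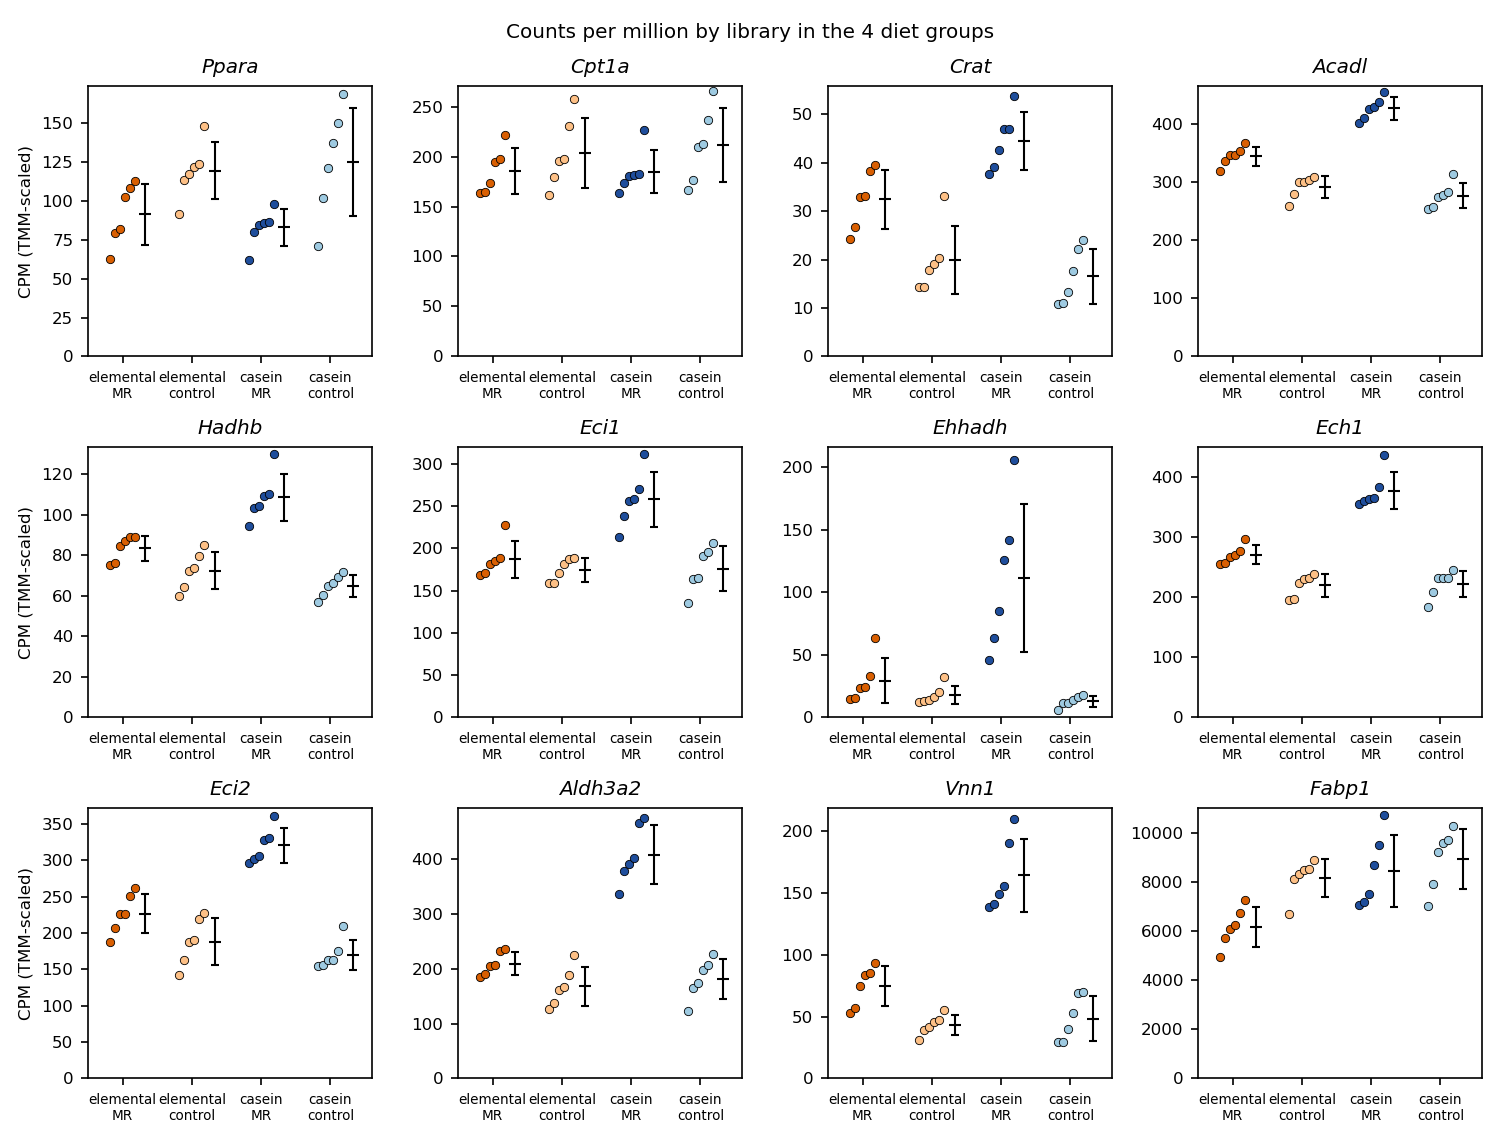
CPM of 12 of the genes in each library (dots) of the 4 diet groups, with the mean and SD (bars, n = 6), on axes that start at 0. Casein MR dots lie above every casein control dot for Crat, Acadl, Hadhb, Eci1, Ehhadh, Ech1, Eci2, Aldh3a2 and Vnn1, whereas those of Ppara, Cpt1a and Fabp1 overlap.

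Set against each other, the 8 peroxisomal genes had a larger median change than the 13 mitochondrial enzymes. Among the 8, Ech1, Eci2 and Slc27a2 also occur elsewhere in the cell, with casein MR values of 0.76, 0.91 and 0.16. The part of their mixed location in the class difference was not tested. The median log2 fold change with casein MR was 0.63 over the 8 peroxisomal genes and 0.43 over the 13 mitochondrial enzymes, with 7 and 11 of them called. With elemental MR the medians were 0.23 and 0.0995, with 2 of 8 and 4 of 13 called. Over the other genes listed for the same routes, 19 peroxisomal and 17 mitochondrial, the medians were -0.057 and -0.081 with casein MR, and -0.078 and -0.10 with elemental MR. To compare the 8 and the 13 genes within a library, each gene's log2 CPM was centred on its mean over the 24 libraries, and the median of the 13 mitochondrial genes was subtracted from the median of the 8 peroxisomal genes. This difference ran from 0.163 to 0.282 in casein MR libraries, against -0.208 to 0.0311 in casein control libraries, so the groups did not overlap. It ran from -0.0978 to 0.0582 in elemental MR libraries, against -0.218 to -0.0283 in elemental control libraries, which overlapped. The difference between the classes was not tested, because the genes were chosen with earlier results known.

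Carnitine transport and the oxidation steps showed no such separation. With casein MR the median was 0.47 over the 4 carnitine genes and 0.46 over the 8 oxidation steps, and with elemental MR it was 0.16 and 0.17. The difference within a library ran from -0.114 to 0.0643 with casein MR, against -0.102 to 0.124 with casein control, and from -0.0262 to 0.137 with elemental MR, against -0.174 to 0.228 with elemental control. The changes of the carnitine genes with casein MR ran from -0.19 for Cpt1a, which was called with neither protein, to 1.42 for Crat, which rose with both, and those of the oxidation steps ran from 0.059 to 0.87.

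**Figure D3:**
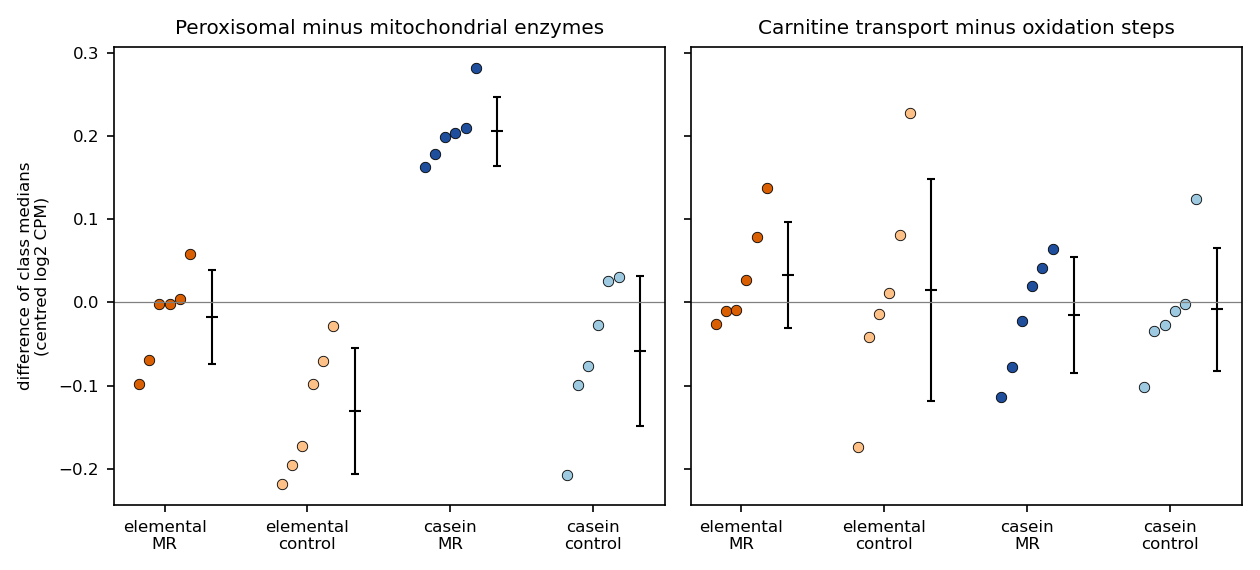
Per-library difference in centred log2 CPM between the medians of peroxisomal and mitochondrial enzymes (left) and of carnitine transport and oxidation steps (right), with group means and SD (n = 6). On the left the casein MR dots, from 0.163 to 0.282, lie above all others, and on the right all 4 groups overlap.

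The effect of MR was larger with casein than with elemental amino acids for 11 of the 32 genes and smaller for 0, when the difference of the effects was tested itself, against 2.34% of all genes called (0.781% higher and 1.56% lower). The median of this difference was 0.33 over the members and -0.00099 over all genes. Ehhadh differed most (2.4 ± 0.50, adjusted p = 0.00682), followed by Aldh3a2 (0.85 ± 0.18, adjusted p = 0.00863), Acaa1b (0.68 ± 0.17, adjusted p = 0.0267) and Eci2 (0.64 ± 0.14, adjusted p = 0.00945). The mitochondrial genes among the 11 were Acadm (0.58), Hadhb (0.54), Acadl (0.38), Hadha (0.37), Decr1 (0.31) and Acadvl (0.31), and the remaining peroxisomal one was Ech1 (0.46). They comprise 6 of 13 mitochondrial and 4 of 8 peroxisomal enzymes, 5 of 8 oxidation steps and 0 of 4 carnitine genes. Crat (0.71 ± 0.27, adjusted p = 0.232), Vnn1 (0.98 ± 0.27, adjusted p = 0.0546) and Pex11a (0.79 ± 0.22, adjusted p = 0.0591) were not called. At an unadjusted p under 0.05 in the edgeR fit 23 members were higher, 3 of them carnitine genes, and 0 were lower, and DESeq2 and limma-voom each called 15 higher and 0 lower. The count ran from 8 to 15 when 1 library was left out, and Decr1, Hadha and Acaa1b were lost in 18, 10 and 6 of those 24 fits. It was 10 without C_MR_3438 and 15 without C_MR_3431.

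**Figure D4:**
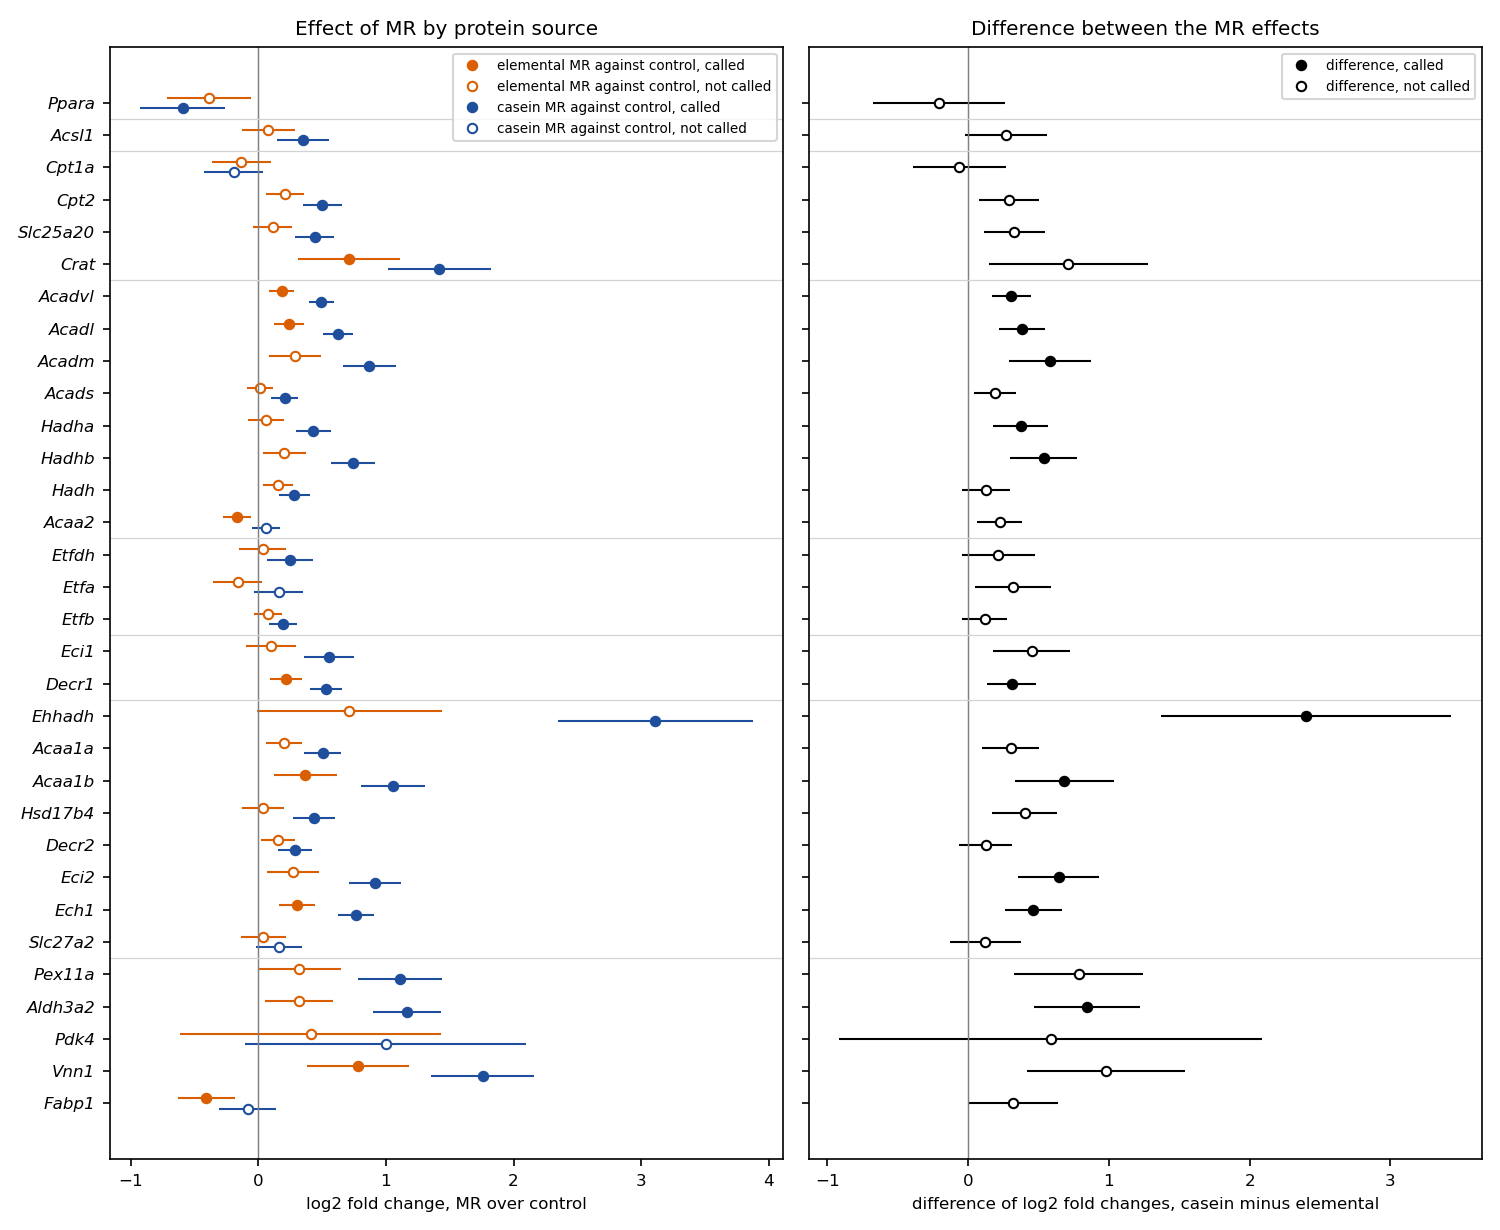
Log2 fold change of MR over control with 95% intervals for elemental amino acids (orange) and casein (blue) on the left, and the difference of the effects, casein minus elemental, on the right, for 32 genes in order of role. Filled symbols are called at an adjusted p under 0.05, and Ehhadh stands furthest right in both panels, at 3.11 for casein MR and 2.40 for the difference.

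Between the control diets 14 of all 13441 genes tested were called and none of them was a member, which is close to the share of all genes. Of the 32 members 0 were called between casein control and elemental control, against 0.104% of all genes (0.0298% higher and 0.0744% lower), and 0 had groups that did not overlap, against 0.655% of all genes. At an unadjusted p under 0.05 in the edgeR fit 2 members differed, Decr2 (0.22) and Hadha (-0.19), and DESeq2 and limma-voom also called 0. On the MR diets 21 members were higher with casein and 0 were lower, against 6.5% of all genes called (2.72% higher and 3.78% lower), and 14 did not overlap, against 4.25%. The largest was Ehhadh (1.93 ± 0.35, adjusted p = 5.88e-04), then Vnn1 (1.14 ± 0.19, adjusted p = 2.99e-04), Pex11a (0.98 ± 0.16, adjusted p = 1.93e-04) and Aldh3a2 (0.96 ± 0.13, adjusted p = 1.55e-05). At an unadjusted p under 0.05 in the edgeR fit 27 were higher and 0 were lower, and DESeq2 and limma-voom called 21 and 22 higher and 0 lower. The comparison of the MR diets shares its libraries with the MR effects above, so these counts are not separate evidence. Fabp1 (0.45 ± 0.11) and Acaa2 (0.19 ± 0.055) were among the 21 although neither was called in casein MR against casein control. The count ran from 18 to 22 over all alternatives. The Acaa2 call was lost in 8 of 24 fits without 1 library and with 1 surrogate variable (adjusted p = 0.0761), and the calls of Acads and Slc25a20 were each lost in 13 of those 24 fits.

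Within each group the genes differed widely in level. On a scale of CPM per kilobase of exon, Fabp1 was highest in all 4 groups, from 11139 with elemental MR to 16177 with casein control. Acaa2 and Acaa1b came next, and they changed places with diet. Acaa1b stood at 1125 ± 139 and Acaa2 at 681 ± 44.3 CPM per kilobase with casein MR, against 542 ± 119 and 653 ± 37.9 with casein control. With elemental MR they stood at 677 ± 87.3 and 596 ± 35.4, against 524 ± 65.7 and 668 ± 28.4 with elemental control, and their ranges overlapped with elemental MR and with casein control but not in the other 2 groups. Etfb, Decr2 and Acadl followed in the same order in every group, although the ranges of Decr2 and Acadl overlapped in all groups but casein control. Pdk4 was lowest, at 0.591 ± 0.193 with casein MR and 0.291 ± 0.20 with casein control (SD, n = 6 each). Ehhadh was the third lowest in both control groups, at 4.28 with casein control and 6.00 with elemental control.

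Single libraries set the extremes of many members at once. C_MR_3425 was the highest casein MR library for 23 of the 32 genes and C_MR_3431 the lowest for 18. E_MR_3405 was the highest elemental MR library for 17 genes. In the control groups, C_C_3413 was lowest for 16 genes, and E_C_3427 was lowest for 18 while E_C_3428 was highest for 14. C_MR_3431 was also the library with the highest sums of Kupffer, endothelial, stellate and erythroid cell markers in its group, and the part of those cells in its low values was not tested.

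Genes of mitochondria and peroxisomes outside this pathway, and those of the further lists below, are set against the 23.3% of all genes called with casein MR and the 13.4% called with elemental MR. Of 18 mitochondrial genes with other roles (citric acid cycle, respiratory chain, chaperones and others), casein MR raised 4 and lowered 3 (median 0.060), and 4 rose and 1 fell with elemental MR (median 0.077). Those that rose with casein MR were the transcription factor Tfam (0.26), the malate dehydrogenase Mdh2 (0.32), the chaperonin Hspd1 (0.45) and the ATP synthase subunit Atp5b (0.15), and citrate synthase, Cs, fell (-0.35). Of 15 peroxins, which build and divide peroxisomes, 0 rose and 1 fell with casein MR, Pex11g (-0.82 ± 0.076, adjusted p = 5.15e-09), and 1 rose and 1 fell with elemental MR, a share close to that of all genes. At an unadjusted p under 0.05 in the same edgeR fit, 0 peroxins were higher and 3 were lower with casein MR.

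Other genes of peroxisomal oxidation went both ways, with 7 of 19 higher and 7 lower with casein MR, and 4 higher and 5 lower with elemental MR. Abcd2, a transporter of very long chain acyl-CoA (1.37), Hsdl2 (1.08), the lyase Hacl1 (0.81) and the carnitine octanoyltransferase Crot (0.79) rose with casein MR, while the CoA hydrolase Nudt7 (-1.37) and the reductase Pecr (-0.48) fell.

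Of 17 other genes of mitochondrial oxidation and its entry that were tested, from 20 listed, 2 rose and 5 fell with casein MR and 1 rose and 3 fell with elemental MR. Slc22a5, the carnitine transporter of the plasma membrane, rose with casein MR (1.09 ± 0.24, adjusted p = 0.00137), with 0.43 ± 0.24 for elemental MR. Acacb, which makes the malonyl-CoA that inhibits CPT1, fell with both proteins (-1.01 with casein MR and -1.29 with elemental MR). Hsd17b10 fell with both as well (-0.88 with casein MR and -0.54 with elemental MR).

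Downstream of the pathway, 4 of 7 ketogenesis genes rose and 2 fell with casein MR, and with elemental MR the 1 gene called by edgeR, also at an unadjusted p under 0.05, was the ketone body transporter Slc16a6, which fell (-0.40). Among them, the thiolase Acat1 (0.42), the hydroxybutyrate dehydrogenase Bdh1 (0.32) and the monocarboxylate transporter Slc16a1 (0.64) rose with casein MR, and Bdh2 (-1.52) and Slc16a6 (-0.84) fell.

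Of 20 further PPARα targets that were tested, from 23 listed, 12 rose with casein MR and 8 with elemental MR, with medians of 1.21 and 0.42. By edgeR 0 fell with either, also at an unadjusted p under 0.05, and this list is made of targets known from other studies. The ω-hydroxylase Cyp4a14 had 5813, 7268 and 9377 CPM with casein MR, against 126, 432 and 699 CPM with casein control, and 2695, 3007 and 3892 CPM with elemental MR, against 202, 731 and 1270.3 CPM with elemental control. It rose with both, by 4.22 ± 0.38 with casein MR and 2.04 ± 0.34 with elemental MR. The thioesterases Acot1 (2.83 and 1.1) and Acot2 (2.97 and 1.29) and the fatty acid translocase Cd36 (2.13 and 1.74) also rose with casein MR and with elemental MR. Cyp4a and Acot genes have near-identical copies, so their single values are uncertain. Ucp2 rose with casein MR (1.75) and had 0.32 with elemental MR. Of 13 partners and coregulators of PPARα, 3 rose and 2 fell with casein MR and 2 rose with elemental MR. The corepressor Ncor1 and the receptor partner Rxrb rose with both, by 0.26 and 0.30 with casein MR and by 0.30 and 0.29 with elemental MR, and the coactivator Ppargc1a had -0.064 ± 0.22 with casein MR.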

How the data were processed

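RNA of 24 mouse liver samples was sequenced, with total RNA as the labelled molecule. Not given in the sources used here are the RNA selection, the strand, the aligner, the counter and the genome build. The deposited raw table holds whole-number read counts per Ensembl gene, and the deposited normalized table holds a signal that equals those counts divided by 1 size factor per library (0.745 to 1.32), which was used for symbols only. Counts were tested in R 4.3.3 with edgeR 4.0.16 (filterByExpr, TMM, a quasi-likelihood fit of 4 group means over all 24 libraries, common biological coefficient of variation 0.159). Genes tested held 99.9% of reads. CPM use TMM-scaled library sizes, and log2 CPM a prior count of 2. Levels per kilobase use the union of exons in GENCODE M21. Standard errors come from the fold change and its F statistic.

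The 32 genes, the role classes and the gene lists were chosen with earlier results of these data known. Lists are described by counts and medians, with no set test. Some list genes are not reported here by name. Libraries are given for Ppara, Cpt1a, Pdk4 and Vnn1 and, in each role class, the 3 genes with the smallest p for the difference between the MR effects; Acaa2, Fabp1 and Cyp4a14 were added after their values were seen. Alternatives were DESeq2 1.42.0 size factors and its Wald test, upper quartile scaling, other filters, limma-voom (limma 3.58.1), 1 surrogate variable (sva 3.50.0), the compared groups alone and leaving out each library. The code was tested on simulated counts. No 2 libraries were identical (0 of 60 pairs within groups), no library was left out, the labels name no batch, and all per-sample columns were used.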

Additional observations from a re-analysis of the deposited data

Results flagged for a closer look

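The difference between the MR effects, casein minus elemental, was called by edgeR for 11 genes, on the log2 scale: Ehhadh 2.40, Aldh3a2 0.85, Acaa1b 0.68, Eci2 0.64, Acadm 0.58, Hadhb 0.54, Ech1 0.46, Acadl 0.38, Hadha 0.37, Decr1 0.31 and Acadvl 0.31. In all 11 the effect was the larger one with casein.

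Of 128 combinations of gene and group, 7 had 1 library far from the other 5, and chance alone flags about 1 in 20 such groups. In casein MR these were Cpt1a in C_MR_3433 (226 CPM), Ech1 in C_MR_3425 (438 CPM) and Pex11a in C_MR_3412 (801 CPM), each the highest of its group. In elemental MR they were Acaa2 in E_MR_3420 (1006 CPM) and Eci1 in E_MR_3405 (228 CPM), again the highest. In elemental control they were Crat in E_C_3428 (33.2 CPM), the highest, and Fabp1 in E_C_3427 (6702 CPM), the lowest.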

How the results depend on the processing

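The casein MR count of 26 members was 25 or 26 under every alternative, with Etfdh the gene lost. The elemental MR count of 9 was 8 to 12 under other settings and 7 to 12 without 1 library. The count for the difference of the effects, 11, was 10 to 15 under other settings, with Hsd17b4, Vnn1, Eci1 and Pex11a gained and Hadha and Decr1 lost, and 8 to 15 without 1 library. The count for casein MR against elemental MR, 21, was 18 to 22 under other settings and 18 to 21 without 1 library. The 0 calls between the control diets stayed 0. All genes called between the control diets, 14, became 90 by the DESeq2 Wald test (47 higher, 43 lower), 3 by limma-voom and 7 with these 2 groups alone, and 5 to 33 without 1 library. Among values that were never called, casein MR against elemental MR turned positive for Cpt1a with upper quartile scaling (0.0017), with a filter of 1 CPM per library (0.00037) and with these groups alone (0.0074), and for Pdk4 by limma-voom (0.27).

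Leaving out 1 library turned the sign of uncalled values only. With elemental MR this held for Acads (-0.00078 to 0.036), Etfdh (-0.020 to 0.070), Hsd17b4 (-0.0067 to 0.062) and Pdk4 (-0.28 to 0.76), and in the difference for Cpt1a (-0.14 to 0.022). With casein MR against elemental MR it held for Cpt1a (-0.074 to 0.049), Slc27a2 (-0.0029 to 0.097) and Pdk4 (-0.56 to 0.35). Between the control diets it held for Ppara (-0.038 to 0.19), Acsl1 (-0.13 to 0.0033), Cpt1a (-0.022 to 0.13), Acadm (-0.095 to 0.033), Etfdh (-0.10 to 0.0097), Etfb (-0.014 to 0.045), Eci1 (-0.037 to 0.078), Decr1 (-0.051 to 0.0050), Acaa1b (-0.037 to 0.13), Ech1 (-0.015 to 0.064) and Slc27a2 (-0.11 to 0.0068). The cause of these shifts was not tested. The median over all genes moved by at most 0.013 with another scaling. No paired analysis was possible because the library numbers are not shared between groups.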
